A study of Mus musculus and Homo sapiens with 10 samples.

Results

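Break ends in mouse enterocytes piled up at 5 stretches of the reference genome, chosen by the number of break ends per kb. All coordinates are GRCm38, the mouse build named in the submitters' processing notes. They are the 45S ribosomal DNA locus (17:39842000-39849000), a locus on chromosome 2 (2:98662000-98668000), the first 100 kb of assembled chromosome 9 (9:3000001-3100000, the proximal locus), a locus inside chromosome 9 (9:35305000-35306000, the interior locus) and a locus on chromosome 14 (14:19400001-19500000). Every position with a break end inside these coordinates was taken, which gave 6834 of the 28179560 nuclear positions with a break end in any library. The positions numbered 3685 at the ribosomal DNA, 928 on chromosome 2, 1023 and 219 at the proximal and interior loci of chromosome 9, and 979 on chromosome 14. Of these, 331, 102, 37, 42 and 36 held break ends in all 6 libraries.

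The libraries came from enterocytes, the absorptive cells of the villus, isolated from mouse jejunum and sorted into 3 gates of 2 libraries each, M1 and M2, as negative, mid or high for Cd73. Cd73 is the cell surface ectonucleotidase encoded by Nt5e, a gene whose expression is known to increase toward the villus tip. Double-strand breaks were mapped by in-suspension BLISS, in which break ends are blunted and ligated to an adapter before the DNA is extracted. Nuclear depth was 13043514 and 12585228 break ends in the Cd73 negative libraries, 4757961 and 5160171 in the mid and 1522615 and 1272771 in the high libraries, so it fell along the gates. The labels used here give no strain, age or genotype of the mice and do not say whether M1 and M2 were separate mice, so p-values reflect the spread among these libraries alone, which may be technical.

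Ribosomal DNA lies in tandem arrays of many copies, each of which is transcribed by RNA polymerase I into a precursor of 18S, 5.8S and 28S RNA. The reference genome represents such arrays, and the tandem satellites at mouse centromeres, by few copies, so that reads from many copies can align to a single place. A value at such a place is therefore a sum over copies, and the number of copies, the placement of reads and breakage per copy cannot be told apart in these counts. No genome sequence was used here, so the loci on chromosomes 2, 9 and 14 are named by position and their repeat class was not checked.

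The 5 loci together held between 0.271% and 0.376% of the break ends of a library. Levels are given as break ends per 1000000 nuclear break ends of the library (EPM), with exact 95% intervals in the plot of levels by library that cover counting error only. Among the 2355902 windows of 1 kb with break ends, 9 of the 10 and 14 of the 20 with the highest mean level lay in these loci. The density at the ribosomal DNA was 1557 to 2417 times that of the 100 kb on each side, depending on the library. It was 196 to 534 times the flanks on chromosome 2 and 248 to 722 times at the interior locus. Over the wider proximal and chromosome 14 loci the density was 9.46 to 19.7 and 13.7 to 38.5 times that of the flanks. For the proximal locus the flank was the 100 kb after it only, because no position with a break end on chromosome 9 lay before it. Outside the loci the median feature of 100 kb held 0.37 break ends per 1000000 and kb, and the densest (1:88200001-88300000) held 3.0. Averaged over their full 100 kb, the proximal and chromosome 14 loci held gate means of 1.01 to 2.66 and 0.97 to 2.76 EPM per kb, below that densest feature. These values describe how the loci were selected and are not results about them.

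At the ribosomal DNA, the level was 2073 and 2058 EPM in the Cd73 negative libraries, 1972 and 2056 in the mid libraries and 2056 and 1541 in the high libraries. The high library M2 was the lowest, and the other libraries lay close together. The group means were 2065 ± 10.5, 2014 ± 59.2 and 1799 ± 364 EPM (SD, n = 2 each). The chromosome 2 locus held 298 and 344 EPM in negative, 404 and 549 in mid and 873 and 976 in the high libraries. No library of a gate overlapped with those of another, and the mean of the high libraries, 924 ± 72.8 EPM, was 2.88 times that of the negative libraries, 321 ± 32.7 EPM (SD, n = 2 each).

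The proximal locus of chromosome 9 held 98.5 and 103 EPM in negative, 118 and 155 in mid and 238 and 295 in the high libraries. Its interior locus held 148 and 162, 179 and 245, and 330 and 340.2 EPM in the same order. The chromosome 14 locus held 92.8 and 101 EPM in negative, 115 and 165 in mid and 265 and 288 in the high libraries. In each of these 3 loci the gates were ordered negative, mid, high without overlap, and the high mean was 2.64, 2.16 and 2.85 times the negative mean. How many other features of 100 kb had such an order was not counted. The order is therefore not read as particular to these loci or to the chromosome 2 locus.

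**Figure D1:**
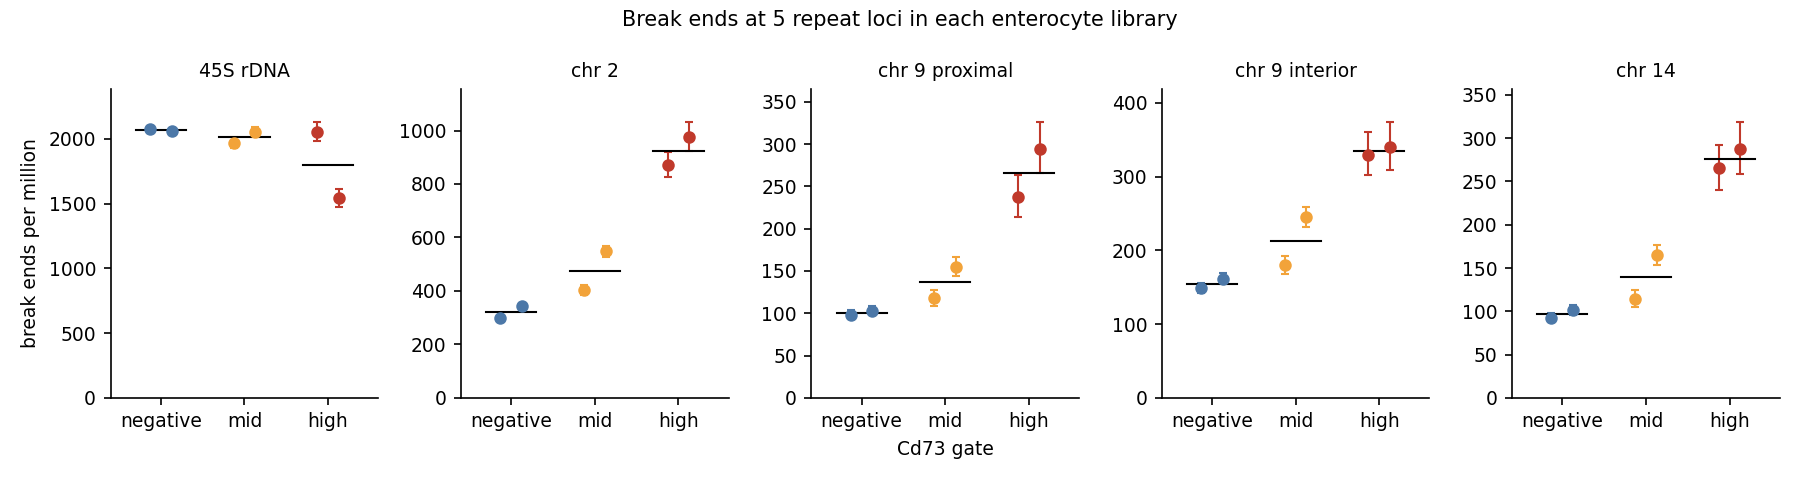
Break ends per 1000000 nuclear break ends (y axis, from 0) at each of the 5 loci in the 6 libraries, by Cd73 gate (x axis); points are libraries with exact 95% counting intervals and lines are means of 2. The ribosomal DNA stayed between 1541 and 2073, while the chromosome 2 locus ran from 298 to 976.

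Within a library these loci can be set against the ribosomal DNA, which removes the total from the comparison. The other 4 loci together held 0.308 and 0.345 times the break ends of the ribosomal DNA in the negative libraries. The ratio was 0.414 and 0.542 in the mid and 0.829 and 1.23 in the high libraries. Set against the chromosome 2 locus, the chromosome 14 locus held a ratio of 0.284 to 0.311 in all 6 libraries and the proximal locus 0.272 to 0.331, while the interior locus went from 0.498 and 0.470 in negative to 0.378 and 0.349 in high libraries. The contigs not placed on a chromosome moved with the 4 loci, from 651 and 722 EPM in negative through 754 and 896 in mid to 1038 and 1227 in high libraries. Depth moved the opposite way. Thinned to the 1272771 break ends of the shallowest library, the log2 fold change of high over negative was 1.46 on chromosome 2, 1.46 at the proximal locus, 1.03 at the interior locus and 1.44 on chromosome 14. Thinning draws at random from the deposited counts and so keeps the expected share of a locus. An effect of depth that arose before counting was not tested.

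The change between gates was tested across the genome with edgeR's quasi-likelihood test on 25096 features of 100 kb, with the 5 loci cut out as features of their own. High against negative libraries, 7 features (0.0279%) were called, all higher, at a Benjamini-Hochberg adjusted p under 0.05, and 2 of the 5 loci were among them. The count of features at an unadjusted p under 0.05 in this edgeR test was 2600 of the 25096. The chromosome 14 locus rose, with a log2 fold change of 1.48 and an SE of 0.27 (adjusted p = 0.0059), and so did the proximal locus, with 1.37 and an SE of 0.27 (adjusted p = 0.0124). Bins of 10 kb in place of 100 kb ended both calls (adjusted p = 0.693 on chromosome 14 and 0.712 at the proximal locus). Leaving out any of the 4 negative or high libraries also ended both, with an adjusted p between 0.118 and 0.603 on chromosome 14 and between 0.182 and 0.603 at the proximal locus. The count of called features was 1 and 4 without the negative library M1 or M2, 1 and 0 without the high library M1 or M2, and 17 without either mid library. The chromosome 2 locus had a log2 fold change of 1.5 with SE 1.01 (adjusted p = 0.603) and the interior locus of 1.08 (SE 0.37, adjusted p = 0.335), and neither passed. The ribosomal DNA had -0.23 (SE 5.42, adjusted p = 0.994), an estimate so wide that no size of change could be read from it.

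These standard errors followed the abundance of the loci. The fit's quasi-dispersion, its factor for spread beyond counting, was 917 at the ribosomal DNA and 32.0 on chromosome 2, against a median of 0.98 over all features. In a fit without a trend of the dispersion with abundance, which was added after the data were seen, the factor was 1.30 and 1.65. That fit called all 4 loci higher, with log2 fold changes of 1.5 (SE 0.12, edgeR adjusted p = 1.3e-06) on chromosome 2 and 1.08 (SE 0.12, edgeR adjusted p = 7.7e-05) at the interior locus. The ribosomal DNA then had -0.22 (95% interval -0.43 to -0.02, edgeR adjusted p = 0.405) and was not called. DESeq2 also called the 4 loci higher and not the ribosomal DNA.

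Mid against negative libraries, 2 features (0.00797%) were called by edgeR and no locus was among them, with log2 fold changes of -0.05 at the ribosomal DNA and from 0.42 at the proximal locus to 0.55 on chromosome 2. The count of features at an unadjusted p under 0.05 was 1560 of the 25096, and DESeq2 called no locus either. With each position counted once, the 4 loci other than the ribosomal DNA were called higher in this comparison (edgeR adjusted p between 0.00037 and 0.00049), and the log2 fold change of the ribosomal DNA turned to 0.76 without a call. Counting positions once caps those that a deep library hits often, and depth fell along the gates. The setting thus lowers loci with repeated positions in the deeper gate of a comparison. No rise in level was read from its calls. High against mid libraries, edgeR called 0 features (0%), with 1185 at an unadjusted p under 0.05 and 0 called by DESeq2. With each position counted once, the same 4 loci were called higher here too (edgeR adjusted p between 3.01e-10 and 4.4e-08), and the ribosomal DNA had a log2 fold change of 0.74 without a call. With all break ends counted, the edgeR log2 fold changes of high over mid libraries were 0.94 on chromosome 2, 0.95 at the proximal locus, 0.64 at the interior locus and 0.97 on chromosome 14. The fit without the trend called the loci on chromosome 2 and chromosome 14 and the proximal locus higher in that comparison. A block for the library number called the proximal and chromosome 14 loci, both with an adjusted p of 0.0104.

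Outside the loci, 5 features were higher in high than in negative libraries, with log2 fold changes from 0.75 to 0.98. One of them (9:3200001-3300000) lay 100 kb beyond the end of the proximal locus and held 18.1 and 19.5 CPM (break ends per 1000000 of the TMM-scaled library) in negative, 23.1 and 20.5 in mid and 35.9 and 31.9 in the high libraries. Its log2 fold change was 0.86 (edgeR adjusted p = 0.0359). None of the 5 densest features outside the loci was called, and their log2 fold changes of high over negative ran from -0.49 to 0.00. For each locus the 3 features of 100 kb with the most similar pattern had a Pearson r of at least 0.991 over the 6 libraries, the highest among 25091 features. Those like the 4 loci had log2 fold changes of only 0.29 to 0.53, and none was called.

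Within the loci the change was not even. Of the 34796 windows of 1 kb tested, 115 (0.33%) were called between high and negative libraries, and 15 of the 36 tested windows of the loci were among them, all higher. They were 5 of 5 tested windows on chromosome 14, 7 of 18 at the proximal locus, 3 of 6 on chromosome 2, and 0 of 1 and 0 of 6 at the interior locus and the ribosomal DNA. A window could pass the filter through the gate in which it was high, so these counts describe the tested windows only. The chromosome 14 and proximal loci had 21 and 67 windows with break ends, most of them not tested. Mid against negative libraries, 1 window (0.00287%) was called and none in the loci. High against mid libraries, 11 (0.0316%) were called and 1 lay in the loci. Without either negative library 1 of these windows was called, without the high library M1 or M2 8 and 2, and without the mid library M1 or M2 8 and 9, in fits that tested more windows because a group then held 1 library.

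**Figure D2:**
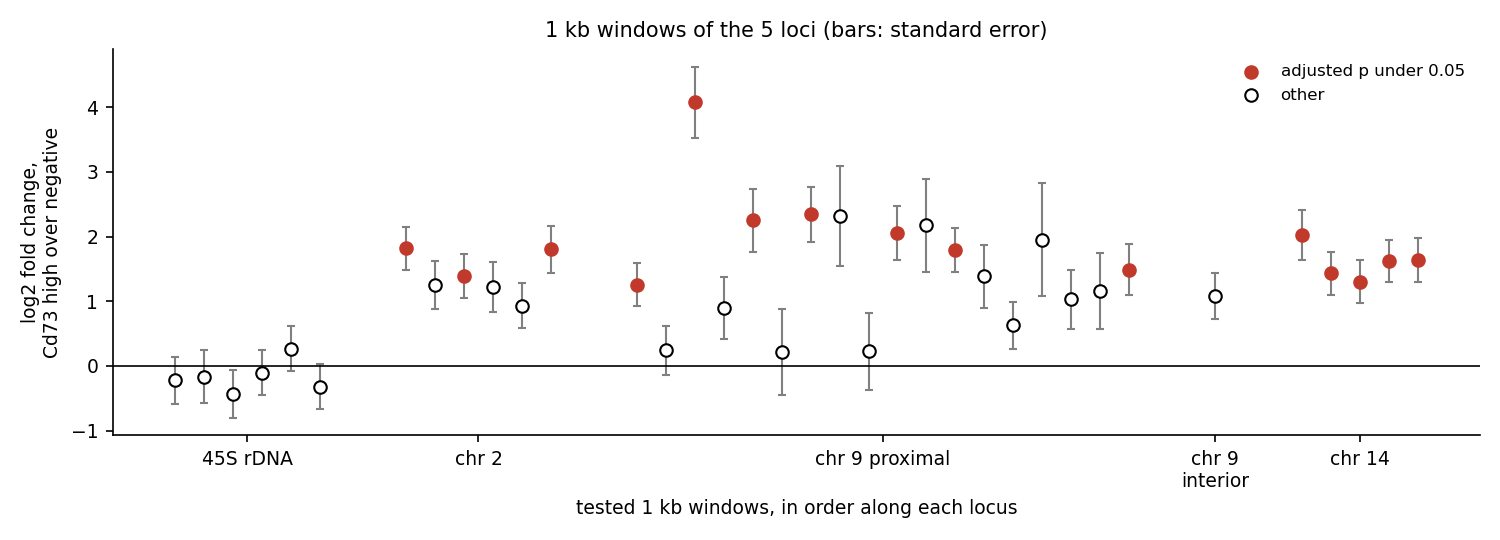
Log2 fold change of Cd73 high over negative libraries (y axis, with standard errors) for the 36 tested windows of 1 kb, in order along each locus (x axis); filled points had an edgeR adjusted p under 0.05. All 15 filled points lie above 0 and none is in the ribosomal DNA.

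On chromosome 2, no gene of the annotation overlaps the locus, and 79.0% to 85.0% of its break ends lay in its last 2 kb. The most used window (2:98667001-98668000) held 137 and 152 EPM in negative, 222 and 257 in mid and 502 and 522 in the high libraries, a log2 fold change of 1.80 (SE 0.37, edgeR adjusted p = 0.00269). Its neighbour (2:98666001-98667000) held 109 and 129, 121 and 194, and 214 and 249 EPM, and its log2 fold change of 0.93 (SE 0.34, edgeR adjusted p = 0.229) did not pass. At the other end of the locus, the window 2:98662001-98663000 held 28.1 and 34.5 EPM in negative and 99.2 and 127 in high libraries (log2 fold change 1.82, edgeR adjusted p = 0.000354). The windows at both ends of the locus were thus called higher.

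The proximal locus of chromosome 9 held 96.3% to 97.9% of its break ends in its first 40 kb. The windows 9:3000001-3001000 and 9:3025001-3026000 held 18.2 and 20.9, and 12.6 and 15.4 EPM in negative libraries, and 50.6 and 44.8, and 48.6 and 50.3 EPM in high libraries. Their log2 fold changes were 1.26 (edgeR adjusted p = 0.048) and 1.79 (edgeR adjusted p = 0.00046). The window ranked 3 by level (9:3027001-3028000) went from 11.7 and 12.7 to 13.1 and 25.9 EPM and was not called. The largest change of a tested window was at 9:3002001-3003000, chosen after its values were seen, with 8 and 10 break ends in negative, 5 and 12 in mid and 10 and 24 in the high libraries (log2 fold change 4.08, SE 0.55, edgeR adjusted p = 4.5e-09). It could pass the filter through the high libraries, with 0.61 and 0.79 EPM in negative and 6.57 and 18.9 in high libraries. The microRNA gene Mir101c, which lies inside this locus, had no break end listed in any library.

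On chromosome 14, 97.4% to 99.8% of the break ends of the 100 kb lay in 6 kb (14:19414001-19420000). The windows 14:19417001-19418000, 14:19418001-19419000 and 14:19416001-19417000 held 33.3 and 34.0, 24.2 and 25.0, and 17.5 and 20.9 EPM in negative libraries. They held 90.0 and 79.4, 72.9 and 81.7, and 50.6 and 55.0 EPM in high libraries, with log2 fold changes of 1.31, 1.62 and 1.43. The pseudogene Gm9637 held 0 to 14 break ends in its part of the locus and the long noncoding RNA gene Gm41101 none. The interior locus of chromosome 9 lay wholly inside the long noncoding RNA gene Gm33838, and whether in an exon or intron was not in the annotation used.

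At the ribosomal DNA, 82.9% to 85.5% of the break ends lay before the start of Rn18s-rs5, the annotated 18S copy (17:39846354-39848202). That stretch held 1302 to 1750 EPM and 299 to 402 EPM per kb. The 18S copy itself held 73.1 to 107 EPM per kb and the stretch after it 131 to 225. The long noncoding RNA gene AY036118 (17:39848112-39898385) begins inside the end of the 18S copy and runs through that stretch. The densest window (17:39844001-39845000) was also the densest of the genome, with 878 and 876 EPM in negative, 930 and 966 in mid and 877 and 715 in the high libraries. The next windows (17:39845001-39846000 and 17:39843001-39844000) held 233 to 419 and 270 to 369 EPM. The log2 fold changes of high over negative in the 6 tested windows lay between -0.43 and 0.27.

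The loci also differed in how many positions carried their break ends. The effective number of positions is the number of equally used positions that would give the same chance that 2 break ends share a position. On chromosome 2 it was 16.5 and 16.8 in negative, 24.1 and 21.5 in mid and 38.9 and 42.6 in the high libraries. At the interior locus it was 10.1 and 9.57, 13.5 and 11.7, and 22.9 and 25.5, and at the proximal locus 44.9 and 41.9, 76.8 and 59.4, and 99.9 and 84.5. On chromosome 14 it was 53.6 and 61.7 in negative, 79.1 and 70.7 in mid and 148 and 191 in the high libraries. High and negative libraries did not overlap in any of these 4 loci, and each exact two-sided permutation p was 0.33, the smallest that 2 against 2 libraries can give. The difference of high minus negative went from 24.1 to 12.9 on chromosome 2 without its most used position, and from 48.8 to 31.9 at the proximal locus at equal depth.

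The ribosomal DNA differed in direction, with an effective number of 199 and 191.5 in negative, 200.1 and 176 in mid and 168 and 185 in the high libraries (exact two-sided permutation p = 0.33 for high against negative, which was lower by 18.6 positions). Without the high library M1 the difference was -9.97 positions and without M2 -27.2. With thinning, the effective number at the ribosomal DNA was 185.2 and 197.4 in negative and 171.2 and 185.4 in the high libraries, so these gates overlapped. At equal depth, the share of bases with a break end rose along the gates in the 4 other loci without overlap. It was 2.05% and 2.35% of the bases on chromosome 2 in negative, 2.68% and 3.10% in mid and 4.52% and 4.83% in the high libraries. On the ribosomal DNA it was 12.1% to 12.8% in negative and mid libraries and 13.5% and 10.7% in high libraries. Without thinning, the share was lower in high than in negative libraries in all 5 loci. Thinning equalizes the total of a library and not the break ends of a locus, so this share also follows the level of the locus. On chromosome 2 the thinned libraries held 388 and 452 break ends in negative and 1120 and 1242 in the high libraries. Wider use of positions was therefore not read from the share of bases.

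**Figure D3:**
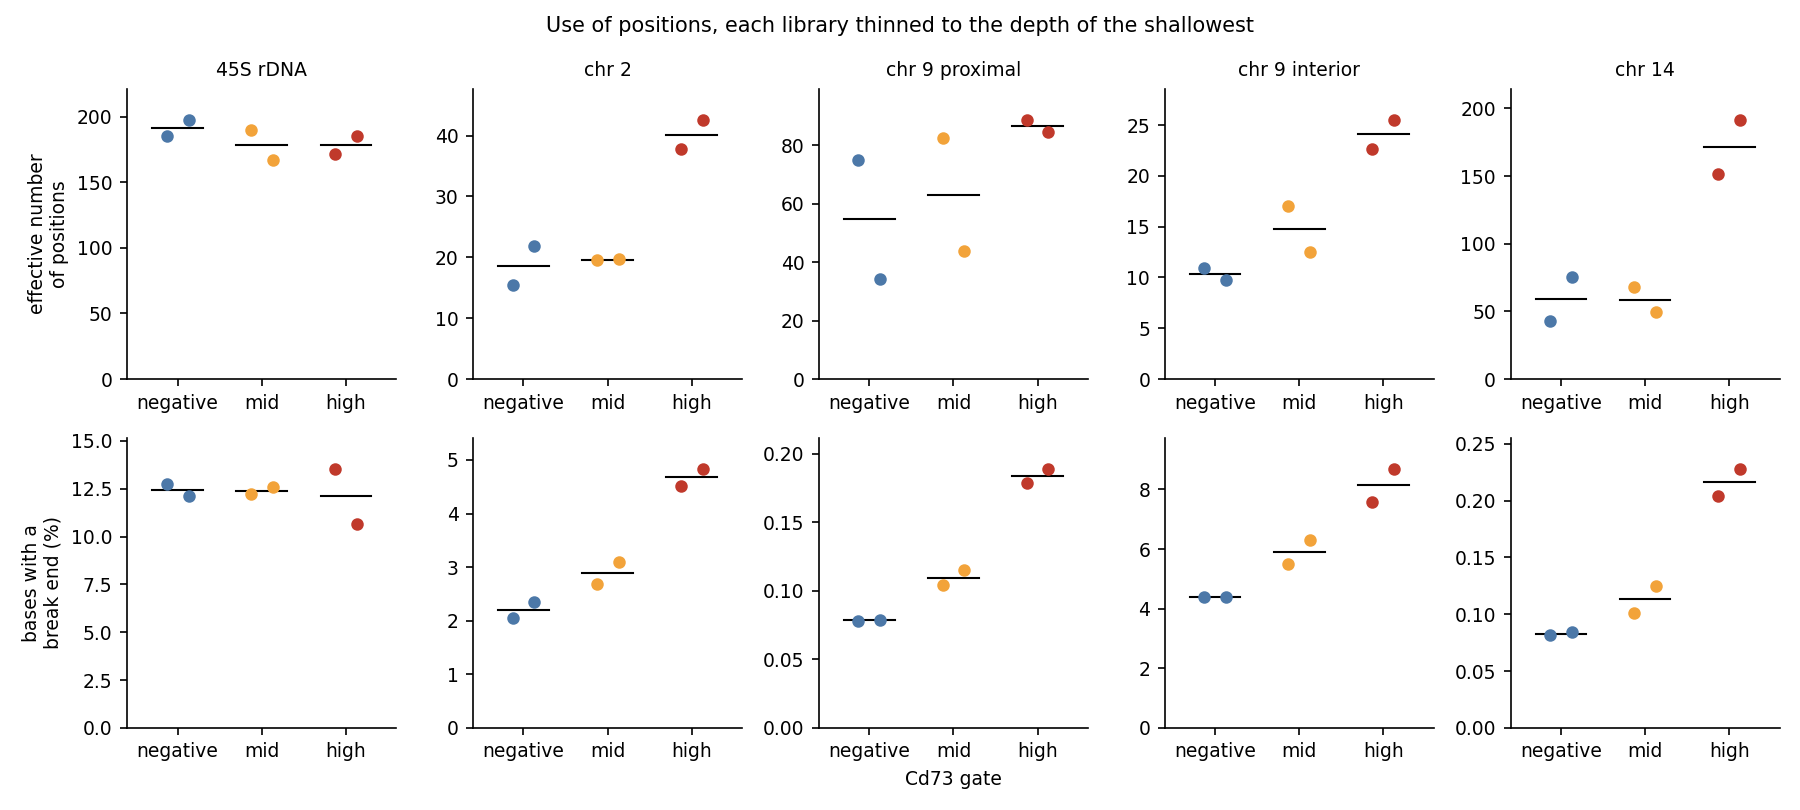
Effective number of positions (upper row) and percent of bases with a break end (lower row) at each locus, all libraries thinned to 1272771 break ends; points are libraries, lines are means of 2 and the x axis is the Cd73 gate. On chromosome 14 the thinned effective number was 43.2 and 75.7 in negative and 151 and 191 in high libraries.

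The most used position of each of the 4 loci was not called between high and negative libraries when single positions were tested (edgeR adjusted p between 0.661 and 0.841). On chromosome 2 that position (2:98667227) held 61.3 and 70.8 EPM in negative, 66.2 and 93.6 in mid and 68.3 and 88.0 in the high libraries. At the interior locus the most used (9:35305425) held 28.4 and 33.1, 27.5 and 44.96, and 36.1 and 38.5 EPM. On chromosome 14 the most used (14:19418648) held 9.05 and 7.79, 9.88 and 12.6, and 9.85 and 10.2 EPM, and at the proximal locus (9:3001111) 9.58 and 10.01, 7.36 and 12.8, and 5.91 and 17.3 EPM. The next most used positions of the interior locus (9:35305429 and 9:35305430) held 28.3 and 32.0, and 15.8 and 16.3 EPM in negative libraries, against 38.7 and 31.4, and 18.4 and 18.9 EPM in high libraries. Those of chromosome 14 (14:19417482 and 14:19417365) held 3.76 and 4.93, and 4.68 and 4.85 EPM in negative and 7.22 and 6.29, and 4.60 and 3.14 EPM in high libraries. At the proximal locus, 9:3000147 held 8.66 and 9.22 EPM in negative and 11.2 and 3.93 in high libraries. The position 9:3000233 held 2.22 and 2.94 EPM in negative and 9.85 and 7.07 in high libraries and was called higher (log2 fold change 1.69, edgeR adjusted p = 0.0425). As a share of the chromosome 2 locus, its most used position fell from 20.6% in both negative libraries to 7.83% and 9.02% in high libraries.

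The 10 most used positions were then chosen in the libraries of one number and measured in those of the other. At the interior locus, they held 110 and 122 EPM in negative and 177 and 168 in high libraries, while all other positions of the locus held 38.0 and 39.97 in negative and 153 and 172 in high libraries. The ratio of the means, high over negative, was 1.49 for the 10 positions and 4.17 for the rest. On chromosome 14 these ratios were 1.66 and 3.29, at the proximal locus 2.12 and 2.87 and on chromosome 2 2.64 and 3.07. At the ribosomal DNA they were 0.805 and 0.883.

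Single positions were tested in a fit added after the data were seen, with 1165 positions of the genome in it, of which 353 lay in the loci. High against negative libraries, 105 of the 1165 (9.01%) were called by edgeR, and 73 of the 353 in the loci, 67 higher and 6 lower. Mid against negative, 37 (3.18%) were called and 23 of them lay in the loci, and high against mid 32 (2.75%) and 26. Leaving out a negative or high library gave 41 to 45 calls in the loci in place of the 73. A position could pass the filter through the gate in which it was high, so these counts describe the tested positions and not all members. By locus, 31 of 59 tested positions were higher on chromosome 2, 13 of 30 at the interior locus, 8 of 13 at the proximal locus and 5 of 13 on chromosome 14, and none was lower. All 6 positions called lower were in the ribosomal DNA, beside 10 called higher.

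**Figure D4:**
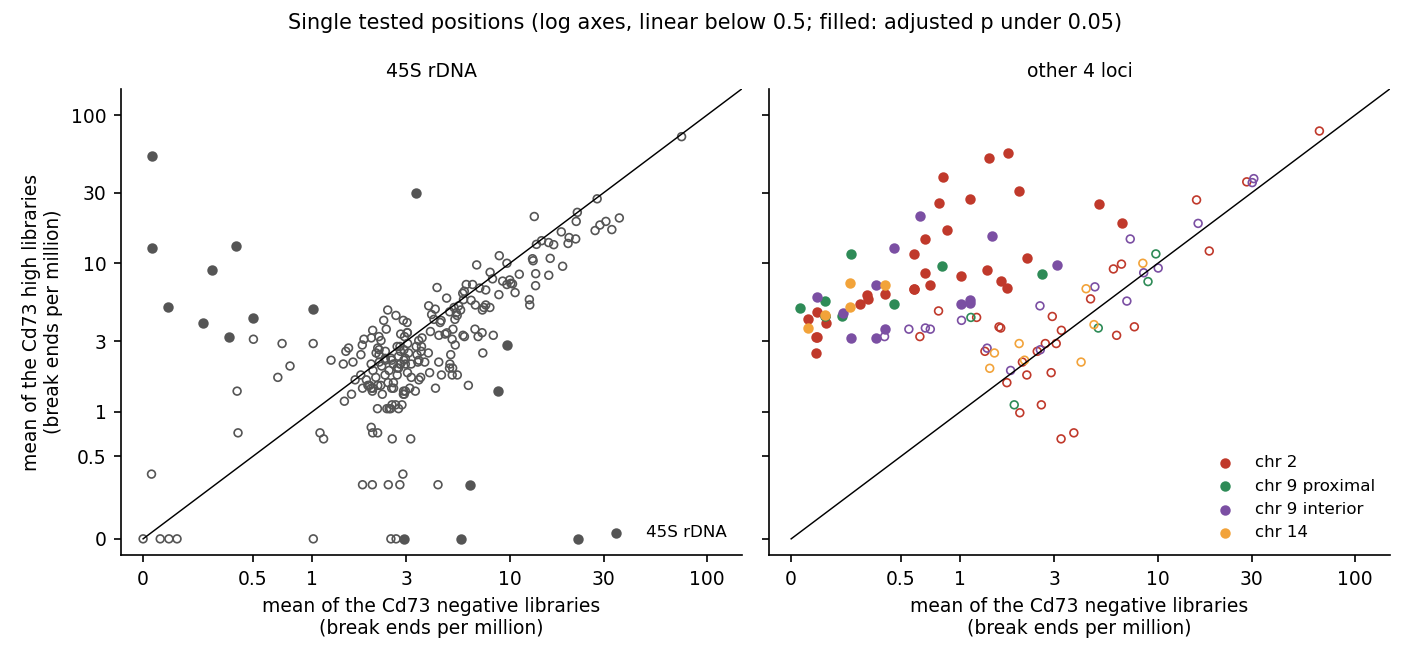
Mean break ends per 1000000 in the Cd73 high libraries (y axis) against the negative libraries (x axis) for the 353 tested positions of the ribosomal DNA (left) and the other 4 loci (right); axes are logarithmic above 0.5 and linear below, and filled points had an edgeR adjusted p under 0.05. Filled points were chosen as called different, so they lie off the diagonal by that choice. Those of the 4 loci all lie above it.

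On chromosome 2, 17 of the positions called higher lay within 23 bp around the most used one (2:98667224-98667246). Positions called higher were chosen by the test in these same libraries, so their rise and the contrast with the other positions follow from the choice. These 17 positions held 21.0 and 16.3 EPM in negative, 84.5 and 64.7 in mid and 303 and 273 in the high libraries, or 7.05% and 4.73% of the locus in negative and 34.8% and 28.0% in high libraries. The position ranked 3 by level (2:98667241) was among them, with 31 and 14 break ends in negative, 87 and 48 in mid and 99 and 58 in the high libraries, a log2 fold change of 4.95 (SE 0.43, edgeR adjusted p = 1.1e-09). The second most used (2:98666847), outside the stretch, held 28.4 and 28.2 EPM in negative and 46.6 and 24.4 in high libraries. In plain counts the 31 positions called higher on chromosome 2 held 470 and 410 break ends in negative, 558 and 540 in mid and 644 and 574 in the high libraries, while all other positions of the locus fell with depth from 3416 and 3921 to 685 and 668. What part depth has in this was not tested.

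**Figure D5:**
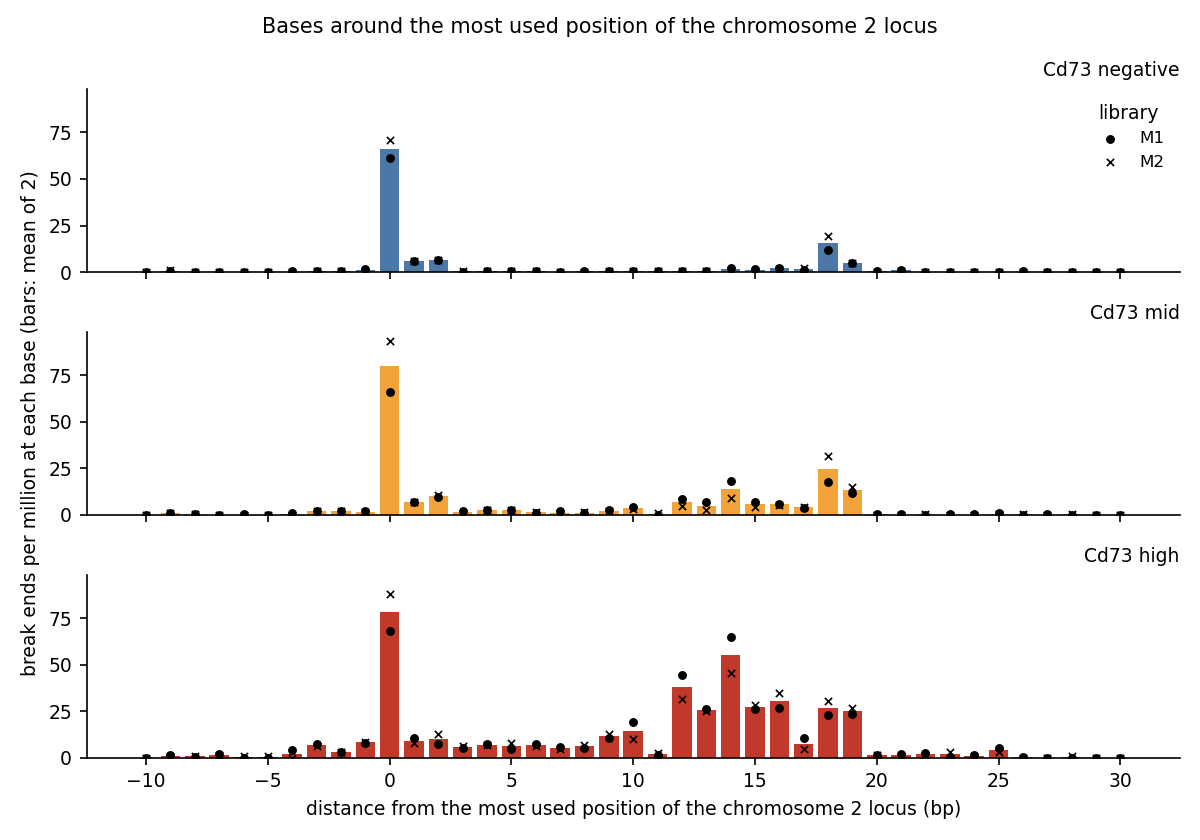
Break ends per 1000000 at each base from 10 bp before to 30 bp after the most used position of the chromosome 2 locus (x axis, distance in bp), by gate; bars are means of 2 libraries and symbols are the libraries. The most used base held 61.3 to 93.6 in all libraries, and the base 14 bp after it went from 2.38 and 1.11 in negative to 65.0 and 45.6 in high libraries.

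At the interior locus a similar cluster of 9 called positions lay within 16 bp (9:35305216-35305231). These positions were also chosen by the test in the same libraries, so their rise follows from the choice. They held 7.13 and 5.09 EPM in negative, 17.2 and 15.3 in mid and 78.8 and 77.8 in the high libraries. That is 4.81% and 3.15% of the locus in negative and 23.9% and 22.9% in high libraries. Inside the cluster, the position 9:35305229 held 10.04 and 10.1 EPM in negative and 9.19 and 9.43 in high libraries, so neighbouring bases differed in their change.

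At the ribosomal DNA, single positions were called in both directions. The called positions were chosen by the test in these same libraries, so the direction of their sums follows from the choice. The 10 positions called higher held 9.05 and 3.89 EPM in negative, 25.9 and 11.4 in mid and 171 and 108 in the high libraries. The 6 called lower held 71.7 and 39.2 EPM in negative, 22.9 and 18.02 in mid and 5.91 and 3.14 in the high libraries. The position 17:39846202, before the 18S copy, held 1 and 0 break ends in negative, 0 and 0 in mid and 119 and 36 in the high libraries. Summed over a gate it was at least 183-fold higher in high than in mid libraries, taking 3 break ends over the mid gate as the floor. The position 17:39844552 held 450 and 122 break ends in negative, 10 and 2 in mid and 0 and 0 in the high libraries, at least 20.8-fold lower in high than in negative libraries with the same floor over the high gate. Both positions were picked with their values in view.

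The 3 most used positions of the ribosomal DNA were 17:39844390, 17:39844644 and 17:39844493. The first held 74.3 and 74.5 EPM in negative, 78.2 and 90.7 in mid and 87.4 and 55.8 in the high libraries. The second held 32.6 and 33.4, 36.8 and 33.3, and 15.8 and 18.1 EPM, and the last of them 23.0 and 32.6, 15.3 and 40.3, and 22.3 and 32.2. For the first and last the gates overlapped, and for the second the high libraries were below all others.

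Counts in windows of 100 bp correlated between the negative libraries with a Pearson r of 0.977 on chromosome 14 (100 windows) and 0.998 on chromosome 2 (36 windows), a description over windows that share the libraries' depth. Between high and negative libraries r was 0.773 to 0.819 on chromosome 14, 0.827 to 0.834 at the proximal locus, 0.951 to 0.959 on chromosome 2 and 0.927 to 0.966 on the ribosomal DNA. The high libraries, with fewer break ends, had an r with each other of 0.929, 0.928, 0.996 and 0.959 in the same order. Of the 20 most used positions on chromosome 2, 18 were shared by both negative and 18 by both high libraries, but 7 by each of the 4 pairs of a high with a negative library. On the ribosomal DNA 13 to 15 were shared by such pairs. On chromosome 14 the negative libraries shared 14, the high libraries 10 and pairs of a high with a negative library 6 to 8.

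Major satellite, the main repeat at mouse centromeres, is built of units of a fixed length. At chromosome 14, pairs of positions that lay 1 unit apart numbered 1.09 to 1.96 times the pairs at nearby distances in the 6 libraries. Weighted by break ends, the ratio was 11.3 and 8.60 in negative, 4.87 and 5.50 in mid and 2.12 and 2.41 in the high libraries. Over a wider range of distances on chromosome 14, the distance with most pairs was 1 unit in negative M2 and mid M1 only. It was 233 bp in negative M1 (51 pairs, against 43 at 1 unit) and 172 bp in mid M2 (33 against 23). In the high libraries M1 and M2 it was 174 and 156 bp, with 20 and 17 pairs against 12 and 13 at 1 unit. On the ribosomal DNA, which is not built of this satellite, the ratio over positions was 0.992 to 1.07 and the weighted ratio 0.766 to 0.915. On chromosome 2 the ratio over positions was 1.001 to 1.19. At the interior locus it was 1.05 and 1.07 in negative, 1.08 and 0.931 in mid and 0.721 and 0.735 in the high libraries, which lay below all others. The difference of high minus negative there was -0.33 (exact two-sided permutation p = 0.33) and stayed negative with weighting (-1.38), with thinning (-0.53) and without any 1 library (-0.34 to -0.32). The pairs 1 unit apart at the interior locus numbered 14 and 16 in negative, 8 and 11 in mid and 7 and 6 in the high libraries. No change of spacing was read from so few pairs. At the proximal locus at most 9 pairs lay 1 unit apart in any library, too few for a ratio to be read.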

How the data were processed

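Break ends were counted by the authors at single positions of each of the 6 enterocyte libraries; the deposited counts are whole numbers, not normalized and without strand. Reads were aligned with BWA to GRCm38, per the submitters' processing notes; mapping quality filters, the placement of reads from repeats and the handling of duplicates are not given by the sources used, so intervals cover counting error only. The libraries of TK6 cells were not used. The members and lists were chosen with earlier results of these data known.

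Counts were summed over features of 100 kb, with the 5 loci cut out, and over windows of 1 kb, and tested with the quasi-likelihood test of edgeR 4.0.16 (R 4.3.3) after filterByExpr and TMM scaling, the 3 gates in a single fit, with a Benjamini-Hochberg adjusted p under 0.05 called. On simulated counts of high against negative libraries (25086 features), 62%, 98%, 100% and 100% of features changed 1.5, 2, 3 and 4-fold were recovered, with 19 false calls. These counts were drawn with the same dispersion for every feature, and none of the 5 loci was changed. The recovery therefore does not apply to the loci, whose quasi-dispersion reached 32.0 on chromosome 2 and 917 at the ribosomal DNA. The effective number of positions is the inverse of the unbiased Simpson index; spacing is the number of pairs of positions 234 bp apart over the mean at 210 to 258 bp, leaving out 232 to 236 bp. Single values were compared with exact two-sided permutation tests, 2 against 2 libraries. The text names the 5 loci, the 3 most used positions and windows of each, overlapping genes of RefSeq, and the 5 densest and the 3 most alike features outside; positions in called stretches were named after values were seen. Alternatives were DESeq2 1.42.0, other scalings, no filter, each position counted once, thinning, the most used position left out, bins of 10 kb, windows of 500 bp, a fit with a replicate block, and leaving out each library. Sums and permutations were computed in Python 3.11.15 (scipy 1.17.1, pandas 2.3.3, numpy 2.4.6).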

Additional observations from a re-analysis of the deposited data

How the results depend on the processing

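Across scalings, no filter, thinning and the most used position left out, the 5 loci kept their direction and their side of the threshold in all 3 comparisons. Counting each position once by construction caps positions that a deep library hits often, which lowers such loci in the deeper gate. It turned the log2 fold change of the ribosomal DNA to 1.5 (high against negative), 0.76 (mid against negative) and 0.74 (high against mid). It called the other 4 loci, and no further feature, in each comparison (4 features each): chromosome 2 at 2.33, 0.98 and 1.35, the interior locus at 2.47, 0.88 and 1.59, and, against mid or from mid to negative, the proximal locus at 1.10 and 0.74 and chromosome 14 at 1.33 and 0.77. In high against negative libraries, DESeq2 called chromosome 2 (1.49) and the interior locus (1.08) too, and so did the fit without the trend (1.5 and 1.08). Bins of 10 kb, with many more tests, called neither the proximal locus (1.38) nor chromosome 14 (1.49) and 1 feature in all. High against mid, the fit without the trend called 3 features, chromosome 2 (0.94), the proximal locus (0.95) and chromosome 14 (0.97). Mid against negative, DESeq2, thinning, bins of 10 kb and the fit without the trend each called 1 feature in place of 2.

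With a replicate block, 11 features were called in high against negative and 2 in high against mid, the proximal (0.96) and chromosome 14 (0.99) loci, and 2 windows of the loci in high against mid. The library numbers were not shown to pair the samples: the difference of M1 and M2 correlated between negative and mid (r = 0.327) but not between negative and high (r = -0.01) or mid and high (r = 0.01). Windows of 500 bp also gave 2 in high against mid.

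Leaving out each library in turn gave log2 fold changes of 1.21 to 1.51 at the proximal locus and 1.40 to 1.56 on chromosome 14 (high against negative), and -0.40 to 0.0251 at the ribosomal DNA (high against mid). Calls among features numbered 0 to 17 (high against negative), 1 to 3 (mid against negative) and 0 to 1 (high against mid). Windows called in the loci numbered 1 to 9 (high against negative) and 0 to 1 (high against mid), and single positions 41 to 63, 10 to 29 (mid against negative) and 16 to 27 (high against mid). The difference in bases used at the ribosomal DNA, high minus negative, ran from -1.79 to 1.09 percentage points. The difference in the spacing ratio ran from -0.0126 to 0.0665 at the ribosomal DNA, -0.0321 to 0.0326 on chromosome 2, -2.03 to 2.597 at the proximal locus and -0.21 to 0.41 on chromosome 14.

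Without thinning, the difference in bases used turned to -2.86 on chromosome 2, -0.244 at the proximal locus, -3.80 at the interior locus and -0.199 on chromosome 14 (percentage points). Weighting by break ends turned the spacing difference to -0.0157 at the ribosomal DNA, -0.42 on chromosome 2, -1.59 at the proximal locus and -7.70 on chromosome 14. Thinning turned it to -0.0449, -0.71 and -1.36 at the ribosomal DNA, chromosome 2 and chromosome 14. The cause of these changes was not tested. The difference of high minus negative in the effective number kept its direction in all 5 loci under thinning, without the most used position and without any library. At the ribosomal DNA, though, the high and negative libraries overlapped under thinning.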
